A study of Mus musculus with 16 samples.

Results

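The glutathione and antioxidant genes of the mouse kidney were followed here, 56 protein-coding genes among the 30277 genes measured. They were chosen by symbol alone. The set took every gene whose name begins with Gsta, Gstm, Gstp, Gstt, Gstk, Gsto, Mgst, Gpx or Prdx, and 16 further genes by name (Gclc, Gclm, Gss, Gsr, Ggt1, Nqo1, Hmox1, Sod1, Sod2, Sod3, Cat, Srxn1, Txn1, Txnrd1, Nfe2l2 and Keap1). Polyadenylated RNA was sequenced from kidneys of 129S1/SvlmJ mice, an inbred laboratory strain made congenic for a recessive mutation of Klotho (Kl), in 16 libraries of 4 groups. The male groups were 3 controls of genotype +/Kl, aged 45 or 46 days, and 5 Kl/Kl mice of 44 to 47 days. The female groups were 4 controls of genotype +/+, aged 45 to 49 days, and 4 Kl/Kl mice of 45 to 54 days. The labels give renal disease for the Kl/Kl groups and healthy function for the controls, and the series asks how renal failure and sex affect kidney gene expression. The kidneys were perfused before freezing. Heterozygous controls were all male and wild-type controls all female, so the control genotype and sex cannot be told apart. Nothing in the labels says that each library came from its own animal, so p-values measure the spread between these libraries.

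Glutathione is a small thiol peptide that is kept at high concentration in kidney tubule cells. Glutamate-cysteine ligase (Gclc and Gclm) and glutathione synthetase (Gss) make it, glutathione transferases attach it to reactive compounds, and glutathione peroxidases use it to reduce peroxides. Gamma-glutamyl transferase (Ggt1), on the brush border of the proximal tubule, begins its breakdown. Many of these genes are induced by the transcription factor NRF2 (Nfe2l2), which KEAP1 holds in check.

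Values were TPM, a read count scaled to gene length, from 1 table for each sex. The deposited values divide by the genomic span of a gene, introns included, so levels are compared here within a gene. The libraries held an estimated 21.5 to 31.7 M reads. Limma was run on log2(TPM + 1) separately for each sex, and every log2 value below is a difference on that scale, Kl/Kl minus control. A gene was called at a Benjamini-Hochberg adjusted p under 0.05 over all genes tested. Testing was limited to genes whose mean reached 1 TPM, 8439 in males and 8748 in females, and 43 of the 56 glutathione and antioxidant genes passed this filter in each sex. Of the other members only some are given, as values without a test.

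A pair of libraries stood apart. In Kl/Kl female 3 the kidney genes were almost absent: 8 proximal tubule markers summed to 15.3 TPM, against 493 to 690 TPM in the other females. Heart muscle markers summed to 1836 TPM there and airway markers to 973 TPM. This library was left out of the female comparison, and counts of called genes with it are given beside. Male control 3 was kidney, with a proximal tubule sum of 293 TPM against 603 to 671 TPM in the other male controls. Mitochondrial genes took 54.3% of its TPM, against 35.4% to 44.8% in the other libraries. It stayed in the male comparison, and results without it are given as well. Male controls had 15.1, 11.4 and 4.14 TPM of Kl itself, which was at most 0.265 TPM in Kl/Kl males (log2 -3.19, limma adjusted p = 9.58e-05). Female controls had 9.18 to 21.2 TPM of Kl and the Kl/Kl females at most 0.518 TPM (log2 -3.63, limma adjusted p = 0.00157), so the genotype labels held in both sexes.

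In Kl/Kl males 6 transferases of the alpha, omega and membrane-bound families were called higher, and a subunit of the enzyme that makes glutathione and the enzyme that begins its breakdown were called lower. In either direction 8 of the 43 tested members were called, against 5.92% of all genes tested. The genes called higher were Gsta2, Gsta3, Gsta4, Gsto1, Mgst1 and Mgst3, which are 6 of the 43, against 3.74% of all genes. Those called lower were Gclm and Ggt1, which are 2 of 43, against 2.18% of all genes. Without male control 3 the same 6 were higher (3.16% of all genes were) and 5 were lower (7.36% of all genes), the added genes being Gss, Sod3 and Prdx5. The median log2 difference over the 43 tested members was 0.29, against 0.19 for all genes in the male comparison. Without male control 3 these medians were 0.02 and 0.01. Values below in males are to be read against this median shift of 0.19 over all genes.

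The split between higher and lower members depended on how the libraries were scaled. Median-of-ratios scaling, which brings the median of all genes to 0.05, gave 9 members higher and 7 lower, against 6.74% and 7.09% of all genes. With equal totals after removing mitochondrial genes the split was 9 and 5, against 5.62% and 4.34% of all genes. With equal totals of protein-coding nuclear genes it was 10 and 5, against 10.4% and 5.29% of all genes. None of the 8 called members changed direction under any setting tried.

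Alpha-class transferases conjugate glutathione to lipid peroxidation products and reduce organic peroxides. Gsta2, Gsta3 and Gsta4 were called higher in males, and Gsta1 and Gsta5 fell below the filter on low values. Gsta4 passed that filter only through the Kl/Kl males, so its place among the tested genes depended on its difference, and it was also called without a filter. Gsta2 lies in a cluster with Gsta1, Gsta4 and Gsta5 on chromosome 9 (its own gene at 78238300 to 78263071, build mm39), and Gsta3 lies apart on chromosome 1 (21310813 to 21335886). In the male controls Gsta2 had 1.88, 4.84 and 1.55 TPM, against 12.8, 16.3, 20.2, 9.92 and 9.59 TPM in the Kl/Kl males. The lowest Kl/Kl male stood above the highest control, and the mean went from 2.76 ± 1.81 TPM (SD, n = 3) in controls up to 13.8 ± 4.52 TPM (SD, n = 5). Gsta2 rose (log2 2.02 with an SE of 0.31, limma adjusted p = 0.00385). Reads of Gsta2 may be shared with its neighbours, since 49.8% of the 50-base stretches of its transcripts also occur in another gene, most often Gsta1.

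Gsta4 (chromosome 9, 78090056 to 78116632), whose enzyme is known for removing 4-hydroxynonenal, was 0.542, 0.428 and 0.387 TPM in male controls and 5.07, 4.11, 5.54, 2.96 and 1.56 TPM in Kl/Kl males. It rose in all 5 Kl/Kl males, to a mean 8.51 times that of controls (log2 1.66, SE 0.27, limma adjusted p = 0.00520). No 50-base stretch of Gsta4 occurs in another gene. Gsta3 was 1.59, 2.19 and 0.907 TPM in controls and 5.30, 5.90, 7.54, 5.83 and 3.37 TPM in Kl/Kl males. The groups did not overlap, although Kl/Kl male 5 was nearer to the controls than the other Kl/Kl males were (log2 1.36, SE 0.23, limma adjusted p = 0.00729).

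Gsto1 (chromosome 19, 47843409 to 47853230) encodes an omega-class transferase with thioltransferase and dehydroascorbate reductase activity. Its level was 1.81, 1.70 and 1.20 TPM in male controls and 6.37, 4.59, 4.17, 5.10 and 3.86 TPM in Kl/Kl males. Every Kl/Kl male was above every control (log2 1.17, SE 0.18, limma adjusted p = 0.00326). The neighbouring Gsto2 stayed at or below 0.116 TPM in males.

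Mgst1 (chromosome 6, 138117314 to 138133754) and Mgst3 (chromosome 1, 167199535 to 167221411) are membrane-bound transferases that also have peroxidase activity. Mgst1 was 1.47, 1.66 and 1.18 TPM in male controls and 12.3, 7.86, 9.86, 18.0 and 3.85 TPM in Kl/Kl males, with the highest values in Kl/Kl males 1 and 4. It had the largest log2 difference of the 43 tested members in this comparison (2.09, SE 0.35, limma adjusted p = 0.00658). Mgst3 was 2.49, 2.58 and 2.11 TPM and 4.24, 4.45, 5.42, 4.12 and 3.34 TPM in the same groups. The groups were separate, and the rise was smaller (log2 0.64, SE 0.16, limma adjusted p = 0.0439). Leaving out any 1 of 6 of the 8 libraries took Mgst3 out of the called genes, with limma adjusted p from 0.0821 to 0.0986. It was also not called with a pseudocount of 5, no filter, median-of-ratios scaling, the replicate block or age as a covariate (limma adjusted p from 0.0531 to 0.110). Gsta2, Gsta3, Gsta4, Gsto1 and Mgst1 stayed called whichever 1 of the 8 male libraries was left out.

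**Figure D1:**
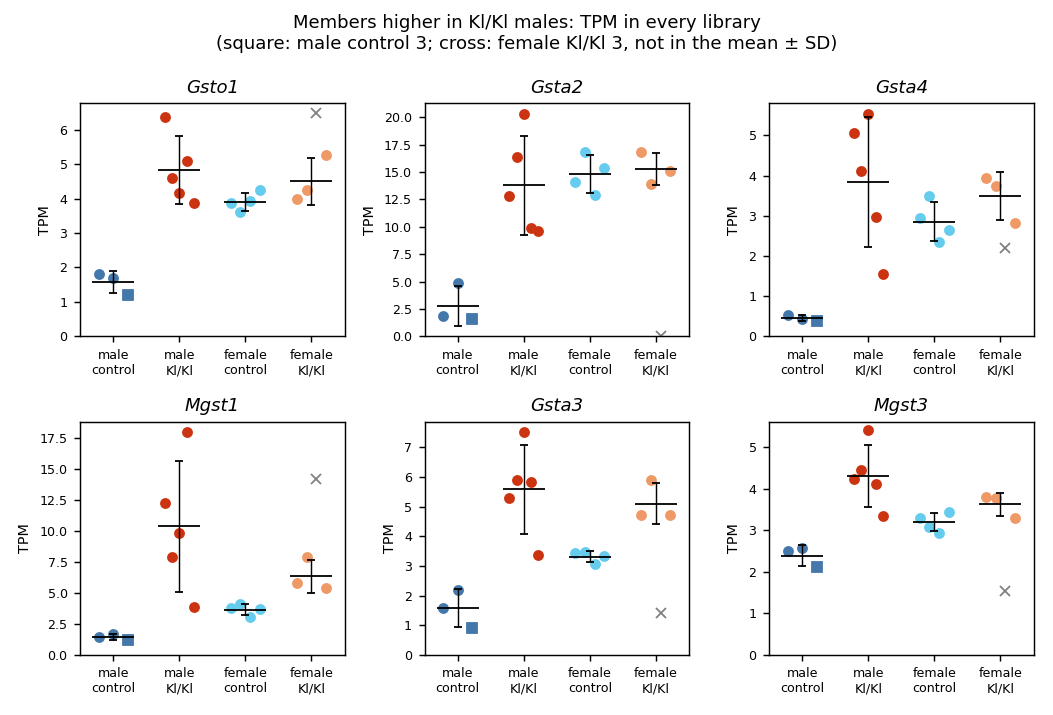
TPM (vertical axis, from 0) of the 6 members called higher in Kl/Kl males, by group, with 1 point per library and the mean and SD as bars. Squares are male control 3, and grey crosses are Kl/Kl female 3, which is not in the mean. Each Kl/Kl male lies above each male control in all 6 panels, and female controls lie above the male controls.

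Sequence from RefSeq (build GRCm38.p6) was used to show the start regions of called members, from 250 bases before to 50 bases after an annotated start. Of the 56 members 47 matched, and those not matched were Gclc, Gsr, Gsta4, Gsta5, Gstt2, Hmox1, Prdx6, Prdx6b and Sod3. The motif searched was TGACNNNGC, on both strands, the core of the antioxidant response element that NRF2 binds with small MAF proteins. Its letters can hold TGACTCA, the motif of AP-1. It occurred in 11 of the 47 members (23.4%) and in 3781 of 27025 genes with such a window (14.0%). Among members called higher in males it was in 2 of 5 with a window, and among those called lower in 2 of 2. The share was 30.6% among members tested in males (11 of 36 with a window), 16.6% among all genes tested in males and 14.9% among all genes called in males. A match describes letters in the window and not a bound site. The windows of both members called higher that held a match follow, 5′ to 3′ on the strand of the gene, with the match in capitals. In Gsta3 (chr1:21240335-21240634, plus strand) it begins at position -121 from the start, in the forward direction, and in Mgst1 (chr6:138140277-138140576, plus strand) at position -56, in reverse.
Gsta3: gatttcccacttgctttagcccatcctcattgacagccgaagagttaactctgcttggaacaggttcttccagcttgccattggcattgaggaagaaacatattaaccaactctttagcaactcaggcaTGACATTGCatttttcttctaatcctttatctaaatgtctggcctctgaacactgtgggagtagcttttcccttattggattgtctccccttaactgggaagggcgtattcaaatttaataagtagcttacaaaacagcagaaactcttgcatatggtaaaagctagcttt
Mgst1: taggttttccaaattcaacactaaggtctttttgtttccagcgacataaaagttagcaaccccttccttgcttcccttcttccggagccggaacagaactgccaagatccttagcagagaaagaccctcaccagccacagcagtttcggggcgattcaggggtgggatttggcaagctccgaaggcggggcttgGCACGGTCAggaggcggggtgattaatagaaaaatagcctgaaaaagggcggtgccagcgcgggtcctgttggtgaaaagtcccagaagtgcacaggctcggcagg

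Among the 5 genes of glutathione synthesis, recycling and breakdown, 2 were called lower in Kl/Kl males and none higher, against 2.18% and 3.74% of all genes. They were Gclm, of synthesis, and Ggt1, of breakdown. Gclm (chromosome 3, 122039206 to 122064382), the modifier subunit of glutamate-cysteine ligase, was 14.9, 19.7 and 8.23 TPM in male controls and 6.16, 6.29, 6.54, 6.27 and 6.45 TPM in Kl/Kl males. The 5 Kl/Kl males were close to each other and below all 3 controls, which ranged widely. Gclm fell (log2 -0.98 with an SE of 0.24, limma adjusted p = 0.0392). Without male control 3, its lowest control, it fell by 1.31 (limma adjusted p = 0.000661). Leaving out any other male library ended the call, with limma adjusted p from 0.0595 to 0.114.

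Ggt1 (chromosome 10, 75397438 to 75422035), the brush border enzyme, was 52.8, 47.9 and 27.6 TPM in male controls and 18.1, 19.7, 14.8, 14.4 and 20.6 TPM in Kl/Kl males, again without overlap. It fell (log2 -1.20 with an SE of 0.25, limma adjusted p = 0.0199), and the log2 difference was -1.49 without male control 3 (limma adjusted p = 0.00187). The call was lost without male control 1 (limma adjusted p = 0.0644) or male control 2 (0.0807). Gss, the synthetase, was 15.2, 16.1 and 9.38 TPM and 4.94, 7.61, 7.22, 4.63 and 8.91 TPM, with every Kl/Kl male below every control. Its limma adjusted p was 0.0524 with all 8 libraries (log2 -0.93) and 0.0217 without male control 3 (log2 -1.15).

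The catalytic subunit Gclc and the reductase Gsr did not pass the test. Gclc was 7.28, 8.48 and 3.45 TPM in male controls and 6.69, 4.58, 5.09, 6.86 and 3.98 TPM in Kl/Kl males (log2 -0.15, 95% interval -0.73 to 0.43, limma adjusted p = 0.716). The ranges overlapped, unlike those of its partner Gclm. Gsr, which regenerates reduced glutathione, ranged over 1.73 to 4.76 TPM in controls and 3.78 to 4.99 TPM in Kl/Kl males.

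**Figure D2:**
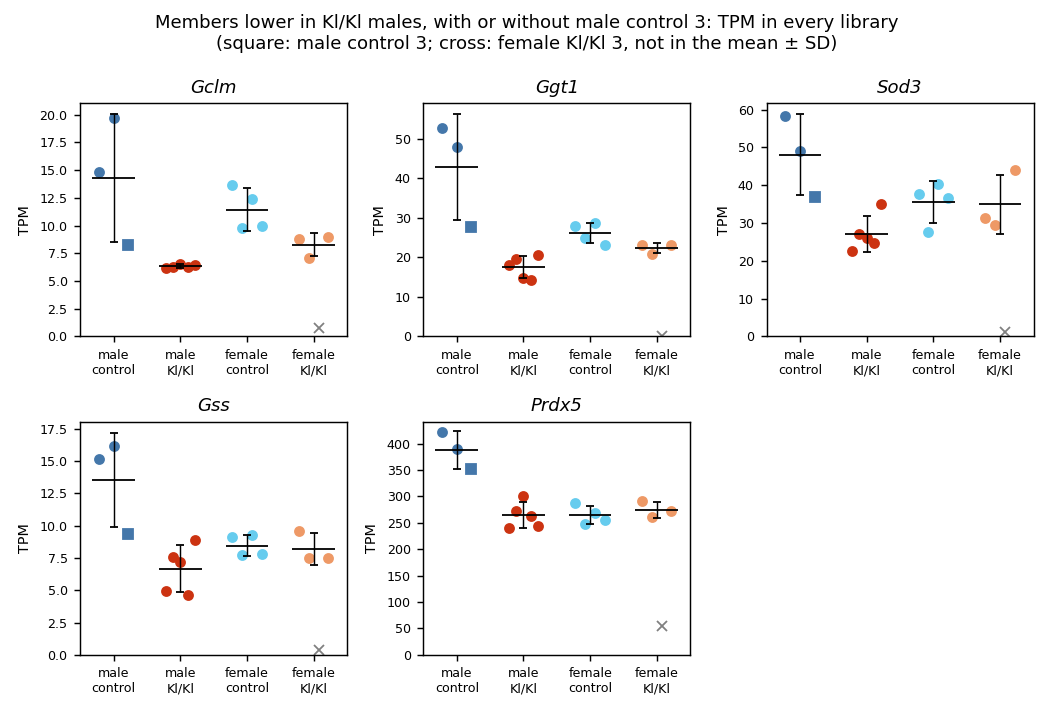
TPM (vertical axis, from 0) of the 5 members called lower in Kl/Kl males with or without male control 3, by group, with 1 point per library and the mean and SD as bars. Squares are male control 3, which is the lowest male control in each panel, and grey crosses are Kl/Kl female 3. Every Kl/Kl male lies below every male control, while among females the groups overlap for Sod3, Gss and Prdx5.

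The start regions of both members called lower held the motif. In Gclm (chr3:122245307-122245606, plus strand) it begins at position -134 in reverse. Ggt1 has several annotated starts, and the window shown (chr10:75568412-75568711, plus strand) is the one with the match nearest before its start, at position -36 in reverse. The same letters thus occurred at members that rose and at members that fell.
Gclm: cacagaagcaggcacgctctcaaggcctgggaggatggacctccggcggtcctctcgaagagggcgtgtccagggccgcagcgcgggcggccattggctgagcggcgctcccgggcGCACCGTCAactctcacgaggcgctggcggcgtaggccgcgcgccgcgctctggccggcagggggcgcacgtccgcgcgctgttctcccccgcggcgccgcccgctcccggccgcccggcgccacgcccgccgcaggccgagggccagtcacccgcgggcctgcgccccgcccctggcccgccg
Ggt1: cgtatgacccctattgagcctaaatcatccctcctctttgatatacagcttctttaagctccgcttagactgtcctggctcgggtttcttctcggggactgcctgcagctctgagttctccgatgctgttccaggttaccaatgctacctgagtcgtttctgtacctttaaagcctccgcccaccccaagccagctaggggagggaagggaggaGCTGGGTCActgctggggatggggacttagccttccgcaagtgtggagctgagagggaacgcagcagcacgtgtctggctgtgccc

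For comparison, the match with its flanking bases is given for 3 members that NRF2 is known for or that encode it, none of which was called. These were Nfe2l2 itself, Srxn1 (sulfiredoxin, which repairs overoxidised peroxiredoxins) and Prdx1, a cytosolic peroxiredoxin whose match contains the AP-1 letters. They lie in the windows chr2:75704614-75704913, minus strand, chr2:152105274-152105573, plus strand and chr4:116685349-116685648, plus strand, with matches at positions -240, 28 and -133. The window of Nqo1, another NRF2 target, held no match.
Nfe2l2: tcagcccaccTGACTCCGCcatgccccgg
Srxn1: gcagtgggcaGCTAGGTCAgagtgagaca
Prdx1: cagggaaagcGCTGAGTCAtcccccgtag

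None of the 4 NRF2 pathway genes passed the test in males. Nfe2l2 was 2.51, 2.81 and 1.04 TPM in male controls and 4.43, 4.25, 3.84, 4.35 and 3.02 TPM in Kl/Kl males, and the groups did not overlap (log2 0.72, limma adjusted p = 0.0679). Male control 3 was far below the others, and without it the log2 difference was 0.44. Nqo1, a quinone reductase and a classical NRF2 target, was 2.27, 3.61 and 1.61 TPM and 3.49, 4.77, 5.82, 4.72 and 3.63 TPM (log2 0.67, limma adjusted p = 0.0820), with male control 2 above Kl/Kl male 1. Keap1, the inhibitor of NRF2, was 5.54, 5.39 and 2.88 TPM in controls and 4.40, 5.37, 5.00, 4.67 and 5.46 TPM in Kl/Kl males, a log2 difference of 0.13 with a 95% interval of -0.31 to 0.56. Hmox1, which degrades heme, varied widely between libraries of a group. Its values were 3.85, 4.00 and 1.41 TPM in male controls and 1.33, 5.48, 23.0, 8.29 and 1.49 TPM in Kl/Kl males, so that Kl/Kl male 1 was below every control, Kl/Kl male 5 was below 2 of the 3 and Kl/Kl male 3 was far above them (log2 0.65, 95% interval -0.81 to 2.10).

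No transferase of the mu, theta, pi or kappa class was called in males. The genes of the mu class lie together on chromosome 3, and their enzymes conjugate many electrophiles. None of its 5 tested members passed the test in males, with log2 differences from -0.42 (Gstm4) to 0.46 (Gstm7). Gstm1, the most abundant glutathione transferase per length of exon in male controls, was 60.7 to 85.7 TPM in male controls and 42.7 to 66.2 TPM in Kl/Kl males. In the theta class Gstt2 was 30.4, 34.9 and 37.3 TPM in male controls and 68.3, 48.6, 36.7, 67.5 and 50.2 TPM in Kl/Kl males, highest in Kl/Kl males 1 and 4 (log2 0.62, limma adjusted p = 0.132). Gstt3 did not overlap between groups (log2 0.62, limma adjusted p = 0.0808), nor did the mitochondrial and peroxisomal kappa-class gene Gstk1 (log2 0.56, limma adjusted p = 0.0860). In the pi class, Gstp1 ranged over 26.9 to 45.0 TPM in controls and 19.8 to 27.7 TPM in Kl/Kl males. Its neighbour Gstp3 was 0.110, 0.242 and 0.0533 TPM in controls and 2.04, 0.769, 0.988, 3.61 and 0.361 TPM in Kl/Kl males. All 5 Kl/Kl males were above the controls for Gstp3, by very different amounts (log2 1.03, SE 0.32, limma adjusted p = 0.0764). Gstp3 passed the filter on low values only through the Kl/Kl males, so its place among the tested genes depended on its difference.

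Glutathione peroxidases reduce hydrogen peroxide and lipid peroxides, and none of the 4 tested was called in males with all libraries. Gpx3, the secreted enzyme that the proximal tubule supplies to plasma, was 1949, 1951 and 1101 TPM in male controls and 2956, 2396, 2594, 2598 and 2898 TPM in Kl/Kl males. The groups did not overlap, and the difference lay just outside the threshold with all 8 libraries (log2 0.73, limma adjusted p = 0.0516) and without male control 3 (log2 0.46, limma adjusted p = 0.0506). Gpx3 was called higher under median-of-ratios scaling (log2 0.53, limma adjusted p = 0.0281). Gpx1, the cytosolic enzyme, was 874, 757 and 481 TPM and 1069, 892, 885, 992 and 888 TPM, again without overlap (log2 0.47, limma adjusted p = 0.170), and its log2 difference was 0.21 without male control 3. Gpx4, which protects membranes from lipid peroxidation, differed by 0.07 (95% interval -0.40 to 0.54) and Gpx8 by 0.10. Per length of exon, Gpx3 was the most abundant member in male controls (7417 ± 480 estimated reads per kb of exon, scaled to sequencing depth, SD, n = 3), ahead of Gpx1 at 719 ± 56.1 and Prdx5 at 655 ± 125 on the same scale. The levels of Gpx1 and Prdx5 did not differ beyond their spread.

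Peroxiredoxins reduce peroxides with the help of thioredoxin. Prdx5, found in mitochondria, peroxisomes and cytosol, was 421, 390 and 351 TPM in male controls and 240, 273, 300, 264 and 243 TPM in Kl/Kl males, all below the controls. Its limma adjusted p was 0.0717 with all 8 libraries (log2 -0.55) and 0.0284 without male control 3 (log2 -0.62). The other 5 tested peroxiredoxins did not pass in either fit, with log2 differences from -0.50 (Prdx1) to 0.38 (Prdx4) over all 8 libraries.

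Superoxide dismutases convert superoxide to hydrogen peroxide, which catalase removes. Sod3, the extracellular enzyme, was 58.2, 49.1 and 37.0 TPM in male controls and 22.7, 27.0, 26.0, 24.8 and 34.9 TPM in Kl/Kl males. The lowest control was only slightly above the highest Kl/Kl male, Kl/Kl male 5. Its limma adjusted p was 0.0550 with all libraries (log2 -0.80), 0.0156 without male control 3 (log2 -0.97). The cytosolic Sod1 was 59.6, 60.5 and 54.0 TPM and 54.9, 47.9, 41.6, 51.7 and 41.3 TPM (log2 -0.29, limma adjusted p = 0.336). For the mitochondrial Sod2 the values were 10.4, 10.8 and 6.79 TPM and 6.78, 9.68, 9.12, 7.86 and 8.54 TPM, with a log2 difference of -0.12 (95% interval -0.56 to 0.32). Catalase was 24.1, 31.8 and 16.4 TPM in controls and 18.4, 25.8, 22.5, 29.8 and 23.7 TPM in Kl/Kl males (log2 0.03, 95% interval -0.51 to 0.56). The ranges of Sod1, Sod2 and Cat overlapped between the groups. Of the thioredoxin genes, Txn1 was lower in every Kl/Kl male than in every control (log2 -0.30, limma adjusted p = 0.294), and neither Srxn1 nor the reductase Txnrd1 passed (log2 0.29 and 0.07).

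**Figure D3:**
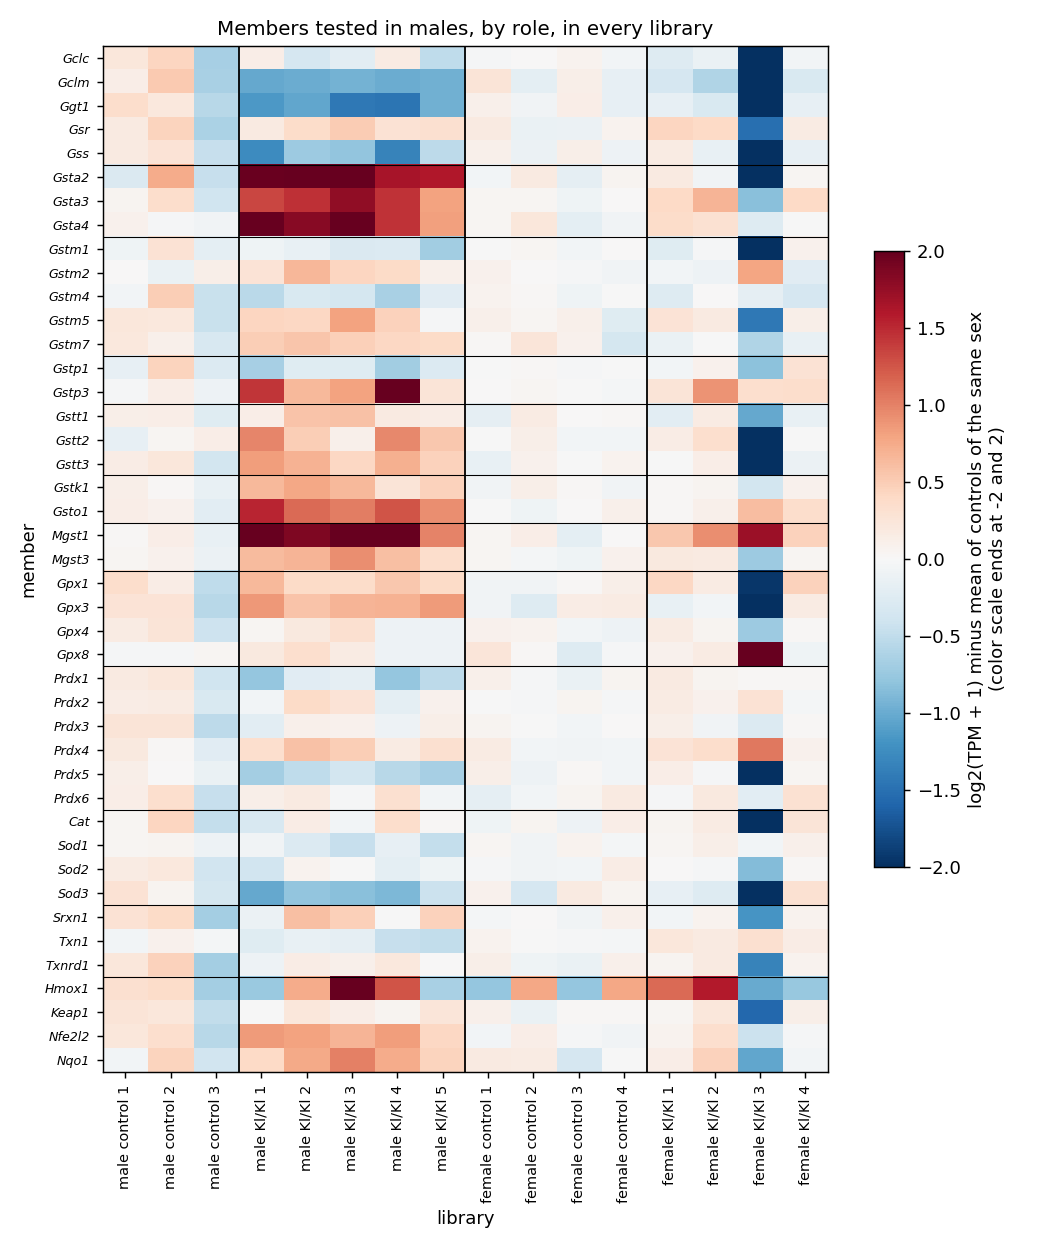
Log2(TPM + 1) of the 43 members tested in males, minus the mean of the controls of the same sex, for all 16 libraries in columns, with members ordered by role and colors ending at -2 and 2. The Kl/Kl males share the red block of alpha, omega and membrane transferases and the blue of Gclm, Ggt1 and Gss, and Kl/Kl female 3 differs from all other libraries.

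In all, 14 of the 43 tested members had Kl/Kl males entirely above the controls (19.1% of all genes did) and 6 entirely below (4.40% of all genes did). Gsta4 and Gstp3 are among these 14 and passed the filter on low values only through the Kl/Kl males. Male control 3 was the lowest control for many members, and leaving it out lowered the log2 difference of most members. The 6 members called higher kept their call without it, with log2 differences of 2.01 for Mgst1, 1.80 for Gsta2, 1.63 for Gsta4, 1.16 for Gsta3, 1.06 for Gsto1 and 0.58 for Mgst3. Among male libraries whose names carry the prefix fdk, which are 2 controls and 3 Kl/Kl males, 4 members were called higher (Gsta2, Gsta3, Gsto1 and Gstt2) and 5 lower (Gclm, Ggt1, Gss, Prdx1 and Prdx5), against 3.71% and 6.16% of all genes. Gsta4, Mgst1 and Mgst3 were not called there (limma adjusted p = 0.0570, 0.0683 and 0.0600). The labels do not say what this prefix stands for, and the other prefix holds 1 male control.

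**Figure D4:**
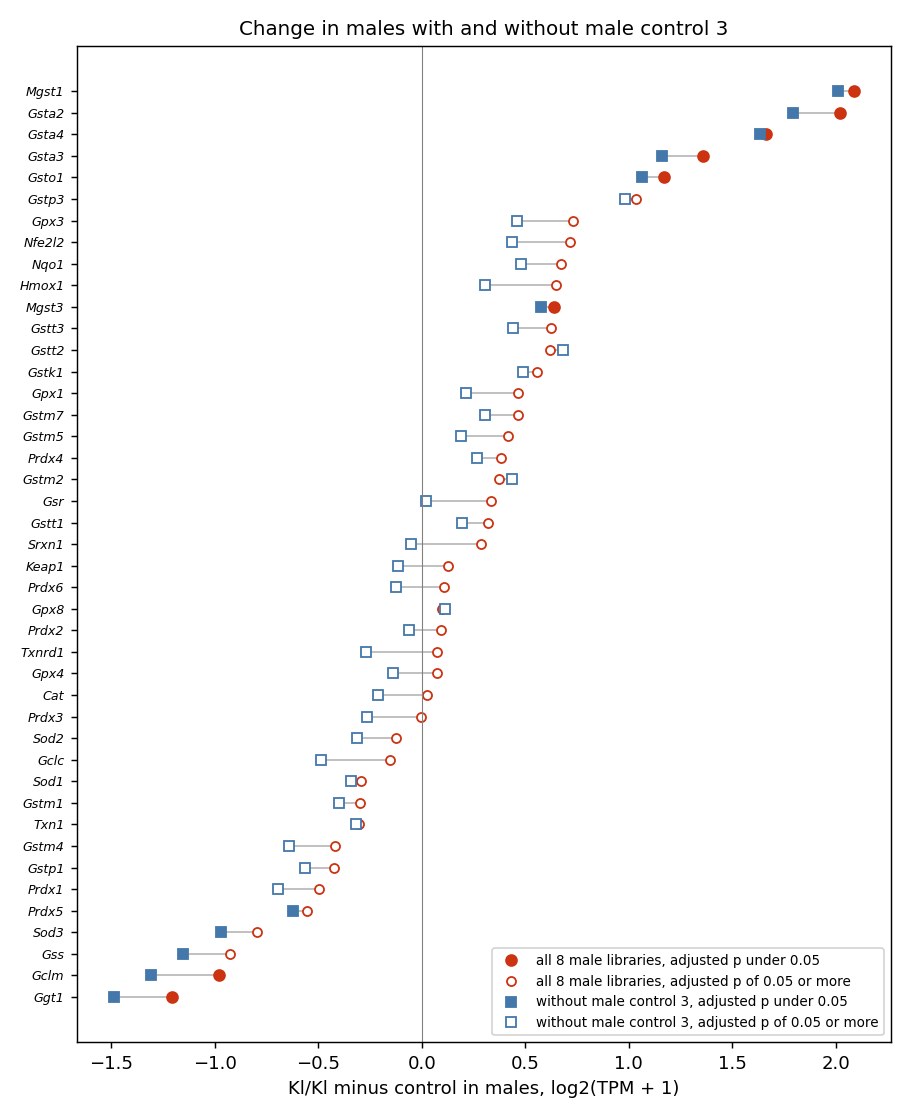
Log2 difference between Kl/Kl and control males (horizontal axis) for the 43 tested members, with all 8 libraries (red circles) and without male control 3 (blue squares), filled where the limma adjusted p is under 0.05. The 6 members called higher stay filled in both, while Gss, Sod3 and Prdx5 are filled only without male control 3.

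Markers of other cells also moved in males. Macrophage markers summed to 6.75 to 11.5 TPM in male controls and 15.5 to 25.1 TPM in Kl/Kl males. Of 5 tested, Cd14 (log2 1.50), Lyz2 (1.39) and Cd68 (0.75) were called higher, C1qa was not called, and Csf1r was not called with a difference the other way (log2 -0.56, limma adjusted p = 0.0826). Without male control 3 Cd68 was not called (limma adjusted p = 0.0674). The defining marker Adgre1 was at most 0.0379 TPM in any male library. Of 4 collecting duct markers Aqp2 was called higher (log2 1.45), while Aqp3 (0.71), Hsd11b2 (0.35) and Fxyd4 (-0.14) were not called. Proximal tubule markers summed to 293 to 671 TPM in controls and 304 to 560 TPM in Kl/Kl males, with Slc5a12 called higher (log2 2.01), Slc22a6 called lower and the other 6 of 8 not called. Without male control 3 the controls held 603 to 671 TPM, above every Kl/Kl male. The median log2 difference of the 8 markers was then -0.50, against 0.01 for all genes. Slc5a12 was still called higher and Slc22a6 lower. In bulk kidney, fewer cells of a type and less RNA per cell cannot be told apart, and the part of these markers in the glutathione genes was not tested.

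In females no glutathione or antioxidant gene was called. Of 43 tested 0 passed the limma threshold, while 9 of all 8748 genes did (0.103%). At an unadjusted limma p under 0.05 there were 8 of 43 members, against 18.4% of all genes. With Kl/Kl female 3 included, 0 of 42 were called by limma, against 0.0349% of all genes, and 1 of 42 had an unadjusted p under 0.05, against 4.82% of all genes. The median log2 difference was 0.08 over members and 0.06 over all genes. Groups were separate for 5 members that were higher in Kl/Kl females (12.2% of all genes) and 2 that were lower (3.90% of all genes), the latter being Gclm and Ggt1.

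The members nearest to the threshold in females were Gsta3 and Mgst1. Gsta3 was 3.43, 3.46, 3.07 and 3.32 TPM in female controls and 4.72, 5.90 and 4.71 TPM in Kl/Kl females 1, 2 and 4. The Kl/Kl females were all above the controls (log2 0.49, SE 0.08, limma adjusted p = 0.0814). Mgst1 was 3.76, 4.08, 3.06 and 3.68 TPM and 5.76, 7.87 and 5.40 TPM, also without overlap (log2 0.65, SE 0.12, limma adjusted p = 0.0853). With all 8 female libraries and array weights, which down-weight libraries that fit poorly, these were the 2 members called, both higher. The share of all genes called in that fit is not given, so this count cannot be weighed against all genes. In males array weights called 16.3% of all genes higher and 17.2% lower. Gpx1 was 719, 712, 764 and 815 TPM in female controls and 1004, 841 and 1032 TPM in Kl/Kl females (log2 0.35, limma adjusted p = 0.112). Kl/Kl female 3, left out here, had 1.43 TPM of Gsta3, 14.2 TPM of Mgst1, 0.793 TPM of Gclm, 0.0403 TPM of Ggt1 and 36.1 TPM of Gpx3. With it the log2 difference was 0.16 for Gsta3 and 0.92 for Mgst1.

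Gclm was 13.7, 9.73, 12.4 and 9.94 TPM in female controls and 8.76, 7.12 and 8.99 TPM in Kl/Kl females, each of the latter below each control (log2 -0.41, limma adjusted p = 0.165). Ggt1 was 28.0, 24.8, 28.7 and 23.2 TPM and 23.1, 20.9 and 23.1 TPM, and the gap between the groups was small (log2 -0.21, limma adjusted p = 0.264). For Gss the values were 9.10, 7.72, 9.28 and 7.77 TPM and 9.62, 7.48 and 7.46 TPM (log2 -0.05, 95% interval -0.29 to 0.20). Gclc was 5.82, 5.91, 6.24 and 5.63 TPM in controls and 4.74, 5.30 and 5.67 TPM in Kl/Kl females (log2 -0.15, limma adjusted p = 0.304). Gss and Gclc overlapped between the female groups.

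The other alpha and omega transferases that rose in males overlapped between female groups. Gsta2 was 14.1, 16.9, 12.9 and 15.4 TPM in female controls and 16.8, 13.9 and 15.1 TPM in Kl/Kl females, a log2 difference of 0.05 with a 95% interval of -0.19 to 0.29. Gsta4 was 2.94, 3.48, 2.35 and 2.66 TPM and 3.94, 3.73 and 2.81 TPM (log2 0.22, 95% interval -0.06 to 0.50). Gsto1 was 3.87, 3.61, 3.92 and 4.23 TPM and 3.99, 4.24 and 5.27 TPM (log2 0.16, 95% interval -0.05 to 0.36). The upper ends of these intervals lie below the log2 differences measured in males. That leaves out the error of the male values, and the direct test of the sexes, given below, did not pass for Gsta4. Mgst3 was 3.31, 3.09, 2.95 and 3.45 TPM in female controls and 3.81, 3.78 and 3.30 TPM in Kl/Kl females (log2 0.14).

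Most of the other antioxidant enzymes named here overlapped between the female groups. Gpx3 was 2405, 2125, 2816 and 2836 TPM in female controls and 2285, 2425 and 2829 TPM in Kl/Kl females (log2 -0.01, 95% interval -0.29 to 0.26). Prdx5 was 287, 247, 269 and 255 TPM and 291, 261 and 272 TPM (log2 0.05). Sod3 was 37.6, 27.7, 40.2 and 36.7 TPM and 31.4, 29.5 and 43.9 TPM (log2 -0.03). All of these ranges overlapped. The values of Sod1 were 44.5, 41.4, 45.3 and 42.2 TPM in controls and 44.5, 47.1 and 46.5 TPM in Kl/Kl females (log2 0.09). Those of Sod2 were 10.2, 9.79, 9.93 and 11.5 TPM and 10.4, 10.1 and 10.6 TPM (log2 0.00), and those of Cat 24.4, 27.0, 24.0 and 28.3 TPM and 26.9, 29.1 and 31.0 TPM (log2 0.16). None of these passed the test. Txn1 was above the controls in every Kl/Kl female (log2 0.19, limma adjusted p = 0.177), whereas it was below them in every Kl/Kl male, and the difference between the sexes did not pass (-0.49, limma adjusted p = 0.283).

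The NRF2 pathway genes also stayed below the threshold in females. Nfe2l2 was 3.42, 4.02, 3.50 and 3.35 TPM in female controls and 3.80, 4.74 and 3.49 TPM in Kl/Kl females (log2 0.13). Keap1 was 5.63, 4.63, 5.30 and 5.28 TPM and 5.40, 6.23 and 5.73 TPM (log2 0.13), and Nqo1 was 3.55, 3.50, 2.17 and 3.00 TPM and 3.39, 4.51 and 2.88 TPM (log2 0.18). Hmox1 spread widely within the female groups too. It was 2.09, 8.07, 2.11 and 8.09 TPM in controls and 10.6, 14.9 and 2.14 TPM in Kl/Kl females (log2 0.65, 95% interval -0.79 to 2.10). Red cell markers, which report remaining blood, summed to 27.6 to 66.5 TPM in female controls and 35.1 to 1230 TPM in the same 3 Kl/Kl females, and their part in Hmox1 was not tested.

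The difference between the sexes was tested directly, as the male change minus the female change over 15 libraries. A fixed offset per gene between both tables cancels in this difference. It was called for 2 of 42 tested members, both larger in males, and for 0.706% of all genes. For Gsta2 the difference was 1.98 (95% interval 1.18 to 2.77, limma adjusted p = 0.0212), and for Gsto1 it was 1.01 (95% interval 0.58 to 1.44, limma adjusted p = 0.0310). Gsta2 lost the call on leaving out any 1 of 5 libraries (limma adjusted p from 0.0522 to 0.0671) and Gsto1 on leaving out any 1 of 8 (from 0.0520 to 0.122). Gsta4 (difference 1.45, limma adjusted p = 0.0676), Mgst1 (1.44, 0.189) and Gsta3 (0.87, 0.207) did not pass. A block on the replicate number within each sex pairs same-numbered libraries of both sexes, although same-numbered males did not deviate together. With it Gsta2 (limma adjusted p = 0.0555) and Gsto1 (0.0704) were not called. Gsta4 (difference 1.86, limma adjusted p = 0.00646) and Mgst1 (1.57, 0.0427) were called with this block.

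Among the genes that fell in males, the difference from the female change was -0.99 for Ggt1 (95% interval -1.58 to -0.41, limma adjusted p = 0.147) and -0.57 for Gclm (95% interval -1.18 to 0.05, limma adjusted p = 0.475). Without male control 3 as well, 6 members were called (3.84% of all genes were). These were Gsta2 and Gsto1, more positive in males, and Ggt1 (difference -1.27), Gclm (-0.89), Gss (-1.11) and Prdx5 (-0.67), more negative in males. With all 16 libraries, Kl/Kl female 3 included, none of 42 was called by limma (0.0491% of all genes were), and 10 had an unadjusted p under 0.05 (7.48% of all genes).

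**Figure D5:**
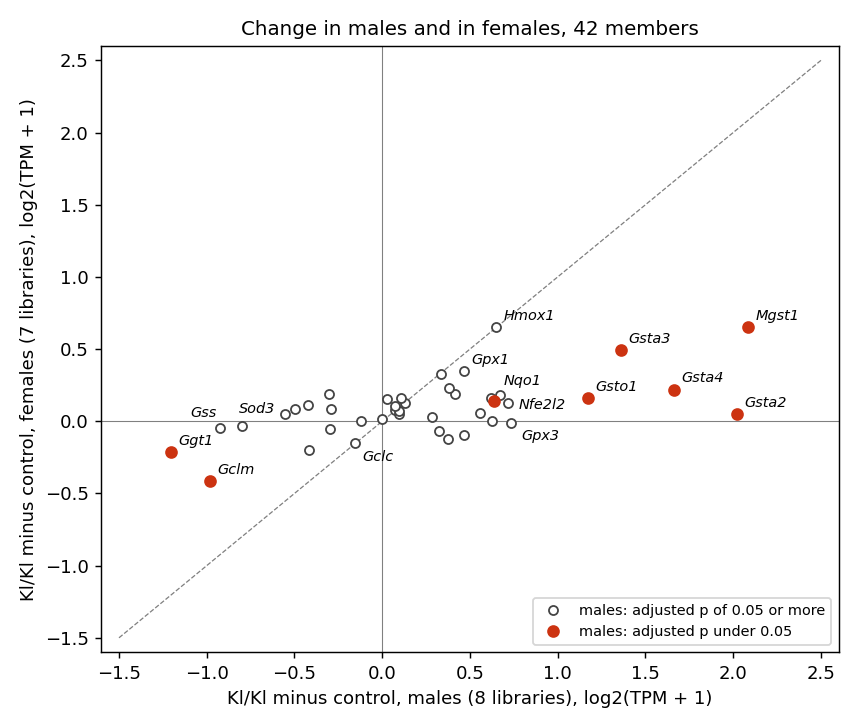
Log2 difference between Kl/Kl and control in males (horizontal axis, 8 libraries) and in females (vertical axis, 7 libraries) for the 42 members tested in both, with the members called in males filled in red (Mgst3 is the red point without a name) and equal changes on the dashed line. Most red points lie nearer to the horizontal axis than to the dashed line, and all 8 have the same sign in both sexes.

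The male and female comparisons share no library. All 8 members called in males had the same sign in females, as did 400 of the 456 genes called in males among all genes (87.7%). Over the 42 members tested in both sexes 31 had the same sign (73.8%), against 74.3% of all genes. The median size of the log2 difference over these members was 0.44 in males and 0.12 in females, and over all genes 0.27 and 0.10.

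Control levels of members called in males, with or without male control 3, are set side by side for the sexes. No test was made, since the tables were scaled separately and the male controls are shared with the male comparison. Gsta2 was 1.55 to 4.84 TPM in male controls, 12.9 to 16.9 TPM in female controls and 9.59 to 20.2 TPM in Kl/Kl males. For Gsta4 these ranges were 0.387 to 0.542, 2.35 to 3.48 and 1.56 to 5.54 TPM. For Gsto1 they were 1.20 to 1.81, 3.61 to 4.23 and 3.86 to 6.37 TPM. For all 3 genes the Kl/Kl males overlapped the female controls, while the male controls lay below them. The male controls were also below the female controls for Gsta3, Mgst1 and Mgst3, but there most Kl/Kl males lay above the female controls. Ggt1 was 27.6 to 52.8 TPM in male controls, 23.2 to 28.7 TPM in female controls and 14.4 to 20.6 TPM in Kl/Kl males, and Prdx5 was 351 to 421, 247 to 287 and 240 to 300 TPM. For Gclm every Kl/Kl male lay below every control of both sexes, while for Gss and Sod3 the Kl/Kl males overlapped the female controls. Each column totals 285327 TPM in the male table, against 265288 TPM in the female one.

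Further genes of the same pathways, 74 in 8 lists, were read from the same fits. Of the glutathione breakdown and mercapturate genes, 3 of 9 tested were lower and 1 was higher in Kl/Kl males, against 2.18% and 3.74% of all genes. Acy3, which deacetylates mercapturates, was 495 to 807 TPM in male controls and 15.2 to 101 TPM in Kl/Kl males (log2 -4.17, limma adjusted p = 0.000905). The aminoacylase Acy1 (log2 -1.61, limma adjusted p = 0.00326) and Ggct, which cleaves gamma-glutamyl amino acids (log2 -0.94, limma adjusted p = 0.00191), also fell. These changes go in the direction of Ggt1, and the median of the list was -0.38 against 0.19 for all genes. Ggt6, a relative of Ggt1, rose (log2 0.89, limma adjusted p = 0.0431), but was not called without male control 3, when 5 of the 9 were lower (7.36% of all genes were).

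Among 8 tested NRF2 target genes outside the 56 members, 2 were called higher in males and none lower, against 3.74% and 2.18% of all genes. These were the carbonyl reductase Cbr1 (log2 1.79, limma adjusted p = 0.000828) and the epoxide hydrolase Ephx1 (log2 0.59, limma adjusted p = 0.0299). The list median was 0.25, against 0.19 for all genes, and without male control 3 it was -0.03, against 0.01. Cbr1 was 5.14 to 7.68 TPM in male controls, 18.9 to 32.8 TPM in Kl/Kl males and 33.6 to 59.2 TPM in female controls. In females Cbr1 went the other way without a call (log2 -0.63, limma adjusted p = 0.199). Its male change minus its female change was called (2.42, limma adjusted p = 0.00125). The NADPH supply list had 1 of 9 lower, the malic enzyme Me1 (log2 -0.82, limma adjusted p = 0.0312), and none higher. In the cysteine and methionine supply, NRF2 partner, other thioredoxin, selenium and methionine sulfoxide reductase lists none of 7, 7, 6, 5 and 1 tested genes was called in males. Without male control 3, Cbs of the cysteine supply (log2 -1.08) and the selenium carrier Selenop (log2 -1.37) were lower. In the thioredoxin list the regulator Txnip, named for its TPM, ranged over 48.1 to 121 TPM in male controls and 93.3 to 850 TPM in Kl/Kl males (limma adjusted p = 0.145). Of the other lists without a call, Mat2a was 57.5 to 84.1 TPM in male controls and 32.2 to 79.4 TPM in Kl/Kl males, and Sqstm1 was 23.6 to 56.9 and 45.0 to 70.6 TPM. Sephs2, of the selenium list, was 116 to 221 and 170 to 368 TPM. The log2 difference was -0.16 for Msrb1. In females 0 genes of the 8 lists were called by limma. The genes nearest were Acy3 (153 to 184 TPM in controls and 54.6 to 107 TPM in Kl/Kl females, log2 -1.07) and Acy1 (log2 -1.23), both with limma adjusted p = 0.0853.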

How the data were processed

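Polyadenylated RNA was sequenced with a directional kit in 16 libraries labelled as mouse kidney, per the labels' protocols. The authors deposited 1 table per sex of TPM (a read count scaled to gene length and to a common total) for each library, with Ensembl gene annotation per the file headers. The submitters' processing notes name Partek and the mouse build mm39, and its aligner, counting method and strand use were not given in the sources used here. The deposited TPM divide by genomic span (median 9858 bases over all genes). At the estimated depths (21.5 to 31.7 M reads), 73.3% to 75.4% of low values came within 0.05 of a whole number of reads, so no count test was run and no counting intervals are given.

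Groups came from the library titles. From the TPM values, log2(TPM + 1) was fitted with limma 3.58.1 (R 4.3.3), with an intensity trend, over genes whose mean reached 1 TPM, Kl/Kl against control within each sex, and as a difference of these changes over both sexes (genes passing in each). The fits were tested on simulated data. Tables and figures used Python 3.11.15, NumPy 2.4.6, pandas 2.3.3 and matplotlib 3.10.9. Genes named were, by rule, the called members of each comparison (at most 12 by p for each sex), with and without the library that stood apart, and a fixed set (Gclc, Gclm, Nqo1, Hmox1, Nfe2l2, Keap1, Gpx3, Cat, Sod1, Sod2 and Sod3), and in each pathway list the called genes (at most 3) or, where none was called, the gene of highest mean TPM. Other genes were named after their values were seen. Members and lists were chosen with earlier results of these data known. Same-numbered female libraries deviated together (r = 0.227, 0.212 and 0.476 across genes), each most with its own number. The main fits did not use this pairing, so the female values above are unpaired. A fit with the replicate number as a block is given among the alternatives. Alternatives covered pseudocount, filter, scaling, weights, block, covariates and each library left out.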

Additional observations from a re-analysis of the deposited data

Results flagged for a closer look

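The change in Kl/Kl males differed from that in Kl/Kl females for Gsta2, by 1.98 on the log2 scale, and for Gsto1, by 1.01. Both were singled out because the limma test of the difference itself passed over 15 libraries. With the replicate number as a block neither passed (limma adjusted p = 0.0555 for Gsta2 and 0.0704 for Gsto1). Kl/Kl female 3, which no comparison above uses in its main form, held 5 members at more than 2 times the highest female control. These were Gpx8 at 15.3 TPM (highest female control 3.56), Mgst1 at 14.2 TPM (4.08), Prdx4 at 3.68 TPM (1.52), Gpx2 at 2.41 TPM (0.0123) and Gpx7 at 2.21 TPM (0.215). It is a single library in which adipocyte markers summed to 1182 TPM and macrophage markers to 494 TPM, and their part in these values was not tested. A library far from the rest of its group was looked for in the Kl/Kl males, the female controls and all 4 Kl/Kl females, for 20 members each. All 5 cases found were low values of Kl/Kl female 3, namely Ggt1 at 0.0403 TPM, Prdx5 at 54.9 TPM, Keap1 at 1.09 TPM, Sod2 at 5.22 TPM and Cat at 4.45 TPM. Chance gives such a case in about 1 of 20 groups. The male controls, with 3 libraries, were not searched.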

How the results depend on the processing

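Without a filter on low values, 4 of 56 members were higher and 0 lower in Kl/Kl males, against 0.803% and 1.06% of all genes. Mgst1 and Mgst3 (limma adjusted p = 0.0563 and 0.0601) were among those not called. With a mean of at least 5 TPM, 29 members were tested, and 3 were higher and 4 lower (6.7% and 3.53% of all genes). Scaling gave 7 lower with median of ratios (7.09% of all genes) and 5 lower without mitochondrial genes (4.34%). With protein-coding nuclear totals it gave 10 higher and 5 lower (10.4% and 5.29%). Robust limma gave 4 lower (2.38% of all genes), and array weights 15 higher and 13 lower (16.3% and 17.2% of all genes). The name prefix as covariate gave 9 higher and 4 lower (11.7% and 3.07%). A fit of all 4 groups gave 16 higher and 6 lower (20.1% and 5.3%). There were 5 lower without male control 3 (7.36% of all genes). In alternatives chosen after seeing the data there were 5 without it under median of ratios (7.71%) and 5 in libraries with the prefix fdk (6.16%). Leaving out 1 male library gave 5 to 7 higher and 0 to 5 lower, with 0 lower without male control 1 or 2. The shares of all genes then ran from 1.06% to 3.77% higher and from 1.14% to 7.36% lower. Same-numbered males did not deviate together (r = -0.131, 0.041 and -0.177). With the replicate block in males, 5 were higher and 0 lower (1.36% and 1.33% of all genes). Limma adjusted p was then 0.122 for Gclm and 0.061 for Ggt1. In females the block gave 0 and 0. In females, 0 were called on leaving out any 1 library, and 2 were higher with array weights and Kl/Kl female 3, also chosen after seeing the data. The share of all genes is not given for that last fit. The members differing between sexes numbered 0 with all 16 libraries (0.0491% of all genes) and 6 over 14 (3.84%). They numbered 1 with a pseudocount of 5, 1 at a mean of at least 5 TPM and 4 with median of ratios. With the replicate block there were 2 (0 shared with the fit without it). Leaving out 1 library gave 0 to 6, with 0 without female control 2 or Kl/Kl female 1 or 2. Shares of all genes are not given for these other settings, so their counts cannot be weighed against all genes. No named member changed sign in males or females where it was called in the main fit or in the alternative. Members called in neither did change sign. On leaving out 1 library the log2 difference of Cat in males ran from -0.21 to 0.24. That of Gpx3 in females ran from -0.10 to 0.05. The cause of these shifts was not tested. Depth is estimated only, so low members cannot be bounded.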

Other observations

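The 13 members below the filter in males were low in kidney. Of these, Gsta1, Gsta5 and Gpx6 are given here, chosen after their values were seen. Male values of the rest, apart from Gsto2, are not given. Gsta1, next to Gsta2, was 0.0183, 0.0253 and 0.0200 TPM in male controls and 0.786, 0.440, 1.28, 0.444 and 0.0473 TPM in Kl/Kl males, and 0.0633 to 0.0912 TPM in female controls. All Kl/Kl males were above the male controls, but 90.5% of its 50-base stretches occur in another gene, so its reads are uncertain. Gsta5, with 49.4% of its stretches shared, was 0.0523 to 0.210 TPM in male controls and 0.211 to 1.04 TPM in Kl/Kl males. Gpx6 was 0.0929 to 0.148 TPM and 0.228 to 0.483 TPM in the same groups. Gstp3 was at most 0.0532 TPM in female controls and 0.226, 0.918 and 0.310 TPM in Kl/Kl females 1, 2 and 4, above every control, without a test in females because its mean was under the filter.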
